A study of Mus musculus with 8 samples.

Results

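The 7 genes described here carry cholesterol into ovarian mitochondria and turn it into progesterone. They were chosen by name with earlier results of these data known, so counts of the 7 beside shares of all genes are descriptions. All 7 were found among the 21997 genes listed for both follicle sources. RNA was measured in 8 single follicles from ovaries of C57BL/6 mice, in 4 groups of 2 libraries each. SAF-TF are small antral follicles and PF-TF preantral follicles that, per the labels, came from transplanted female germline stem cells (FGSCs). SAF-WT and PF-WT are follicles of the same stages from wild type mice. By its title the series asks how such stem cells restore the function of the ovary. The labels give no age and no transplant host, and leave unsaid which follicle cells grew from the transplanted ones. They also leave unsaid whether replicate follicles were taken from different animals, so p-values measure the spread between these libraries only.

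Steroid hormone synthesis starts when cholesterol crosses to the inner mitochondrial membrane. Star is the regulated carrier of that step, and Tspo is an outer membrane protein that binds cholesterol and whose part in steroid synthesis in mice is disputed. At the inner membrane the cytochrome P450 Cyp11a1 cleaves the cholesterol side chain to give pregnenolone, with electrons that pass from NADPH through the reductase Fdxr and the ferredoxin Fdx1. Hsd3b1, a 3β-hydroxysteroid dehydrogenase, then makes progesterone. Mgarp is a mitochondrial protein abundant in steroid-making tissues and linked to mitochondrial shape and transport. In the ovary theca cells are among the cells that make these proteins as follicles grow, and luteal cells make them at high level after ovulation.

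On GRCm38, Star lies on chr8:25806555-25815982, Cyp11a1 on chr9:58006411-58027023 and Tspo on chr15:83563592-83574203, all on the plus strand. Fdx1 lies on chr9:51943306-51963556, Fdxr on chr11:115268024-115277050, Hsd3b1 on chr3:98852194-98859794 and Mgarp on chr3:51388412-51396738, all on the minus strand. All are protein-coding genes, and the deposited tables give 1 count per gene and library. Of the 50-base stretches of the Hsd3b1 transcript, 4.98% also occur in other annotated genes, mostly of the Hsd3b family, so its counts are uncertain. Tspo shares 0.508% of its stretches with Mcat, whose exons overlap it on the opposite strand, and no source used here gives the strand setting of the counts. The other 5 genes share none, although exons of the noncoding gene Gm17322 (0 to 35 counts per library) overlap Cyp11a1 on the same strand.

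Promoter sequences were at hand in RefSeq (GRCm38.p6) for 5 of the 7 genes. They were searched because all 7 genes were highest in SAF-TF, and those of Cyp11a1, Fdx1, Mgarp and Hsd3b1 are shown. Each window runs 5′ to 3′ on the gene's strand, with 250 bases before the start site and 50 after it. Capitals mark CAAGGT or CAAGGC or their reverse complements, the core letters of the half-site that NR5A1, the steroidogenic factor, is known to bind. Both strands were searched, and no other motif was. The windows are chr9:58014702-58015001 for the second listed start of Cyp11a1, chr9:51963553-51963852 for Fdx1, chr3:51396498-51396797 for Mgarp and chr3:98859745-98860044 for Hsd3b1.
Cyp11a1: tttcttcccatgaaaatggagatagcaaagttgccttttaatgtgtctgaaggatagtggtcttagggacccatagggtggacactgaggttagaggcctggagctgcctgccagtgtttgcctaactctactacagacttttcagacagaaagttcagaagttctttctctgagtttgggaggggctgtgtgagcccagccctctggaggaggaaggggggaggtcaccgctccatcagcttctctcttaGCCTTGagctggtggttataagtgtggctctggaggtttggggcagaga
Fdx1: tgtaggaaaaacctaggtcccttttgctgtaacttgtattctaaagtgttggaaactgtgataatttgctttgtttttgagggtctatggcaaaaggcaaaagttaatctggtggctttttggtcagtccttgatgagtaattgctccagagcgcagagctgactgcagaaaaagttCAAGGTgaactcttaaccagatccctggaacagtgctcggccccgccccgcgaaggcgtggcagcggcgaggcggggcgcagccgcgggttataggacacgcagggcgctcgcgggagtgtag
Mgarp: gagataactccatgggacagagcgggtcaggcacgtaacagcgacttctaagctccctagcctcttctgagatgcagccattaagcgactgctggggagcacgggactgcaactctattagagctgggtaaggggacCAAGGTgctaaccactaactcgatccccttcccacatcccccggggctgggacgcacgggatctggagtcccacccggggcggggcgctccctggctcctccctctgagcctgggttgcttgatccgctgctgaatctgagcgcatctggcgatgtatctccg
Hsd3b1: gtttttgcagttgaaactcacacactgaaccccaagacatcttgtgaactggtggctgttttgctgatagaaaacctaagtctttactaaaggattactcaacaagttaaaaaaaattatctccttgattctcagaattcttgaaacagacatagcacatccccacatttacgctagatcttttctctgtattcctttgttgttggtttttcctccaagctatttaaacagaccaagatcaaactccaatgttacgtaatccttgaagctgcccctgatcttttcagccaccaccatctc
Counted from the start site, the match began at position 2 in Cyp11a1, -73 in Fdx1 and -113 in Mgarp. Fdxr held a match at position -140. The Hsd3b1 window and the first listed start of Cyp11a1 held none. The window of that first start, chr9:57997774-57998073, lies before the Cyp11a1 span given above, and that of the second start lies inside the span. Which start the follicles used was not tested. In all, 4 of the 6 promoters of these genes had the letters, against 29.3% of the 32851 promoters of the same length, so the letters are common and a match is a description, not a binding site.

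Markers of luteal cells, which form after ovulation, were high in the SAF-TF libraries, at odds with their label as small antral follicles. The list of these markers was chosen with earlier results of these data known, so their sums do not test the label. The summed level of 8 luteal markers other than the 7 genes was 13364 and 12918 CPM in SAF-TF, 262 and 246 CPM in SAF-WT, 66.3 and 79.0 CPM in PF-TF, and 91.3 and 64.6 CPM in PF-WT. Akr1c18 made up most of the SAF-TF sum (10512 and 11329 CPM). Both SAF-TF libraries show this, so no value for SAF-TF below is free of it, and SAF-TF is used as the label's name for these 2 libraries.

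SAF-TF follicles stood above every other group for all 7 genes. The genes took up 3.13% and 1.99% of all counts in the SAF-TF libraries, 0.423% and 0.382% in SAF-WT, 0.182% and 0.327% in PF-TF, and 0.100% and 0.120% in PF-WT. Counting error on these shares was small, as the widest 95% Wilson interval spanned 0.0225 percentage points, and total counts ran from 7656108 to 9805287. By CPM, without regard to transcript length, Hsd3b1 alone ranked 1st and 3rd of all genes tested in the SAF-TF libraries.

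**Figure D1:**
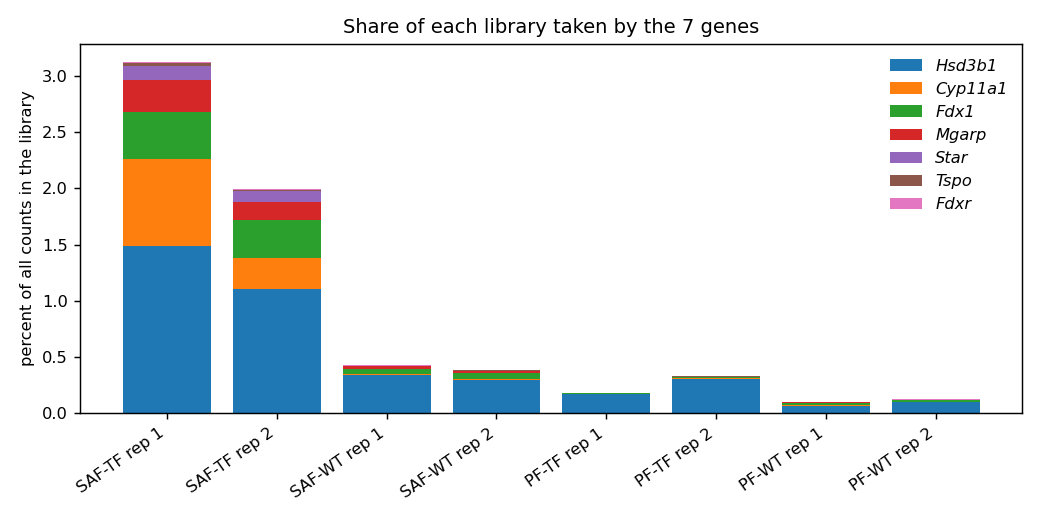
Percent of all counts in each of the 8 libraries (vertical axis) taken by the 7 genes, stacked by gene. The SAF-TF libraries reach 3.13% and 1.99%, and the other 6 stay at or below 0.423%, with Hsd3b1 the largest part of every bar.

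Levels below are CPM, read counts scaled to library size, and changes are log2 fold changes ± SE from edgeR's quasi-likelihood test with Benjamini-Hochberg adjustment over 17925 genes at 0.05. All 7 genes passed the low-count filter. Between the stages in transplant-derived follicles (SAF-TF over PF-TF), 7 of 7 genes rose, where 18.2% of all genes were called higher and 25.0% lower. Between the sources at the small antral stage (SAF-TF over SAF-WT), 7 of 7 were higher, where 4.61% of all genes were higher and 5.34% lower. Between the stages in wild type (SAF-WT over PF-WT), 4 of 7 rose (Star, Cyp11a1, Fdx1 and Hsd3b1) and 0 fell, where 12.7% of all genes rose and 22.5% fell. Between the sources at the preantral stage (PF-TF over PF-WT), edgeR called 0 of 7, where 0.218% of all genes were called in either direction. At an unadjusted p under 0.05 there were 4 genes in that comparison. The share of all genes at that threshold was not counted. DESeq2 called 2 of these 4, where it called 1322 of all genes.

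The median log2 change of the 7 genes was 5.355 for SAF-TF over PF-TF, beside -0.08 over all genes. For SAF-TF over SAF-WT it was 3.05, beside 0 over all genes. For SAF-WT over PF-WT it was 1.78, beside -0.20, and for PF-TF over PF-WT -0.42, beside -0.03. The comparisons share libraries, so they are not independent of each other. In whole follicles, fewer cells of a type and less RNA per cell cannot be told apart.

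**Figure D2:**
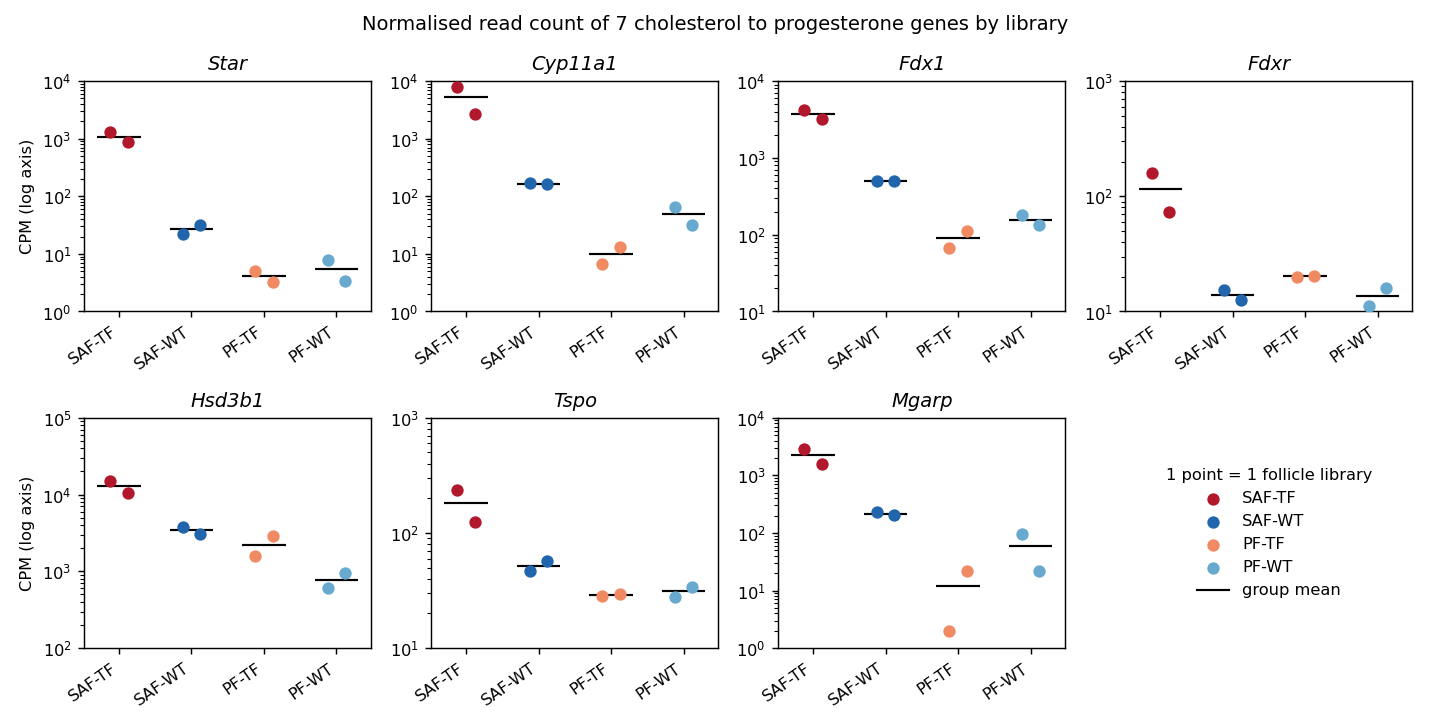
CPM of each gene (log axis) in the 8 follicle libraries, 1 point per library, with the group mean as a line. Both SAF-TF points lie above all 6 other points in every panel, while SAF-WT and PF-WT overlap for Fdxr and PF-TF and PF-WT overlap for Star, Tspo and Mgarp.

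The genes of cholesterol import changed by unequal amounts. Star, the carrier, had 1287 and 865 CPM in the SAF-TF libraries, 22.0 and 32.2 CPM in SAF-WT, 4.98 and 3.21 CPM in PF-TF, and 7.74 and 3.32 CPM in PF-WT. The SAF groups did not overlap each other or the PF groups, and the PF groups overlapped. Star thus averaged 1076 ± 299 CPM in SAF-TF and 4.09 ± 1.25 CPM in PF-TF (SD, n = 2 each), a rise of 8.04 ± 0.49 (adjusted p = 1.78e-05). In wild type it rose by 2.31 ± 0.40 (adjusted p = 0.00228). SAF-TF exceeded SAF-WT by 5.31 ± 0.42 (adjusted p = 2.88e-04). The preantral difference was -0.42 ± 0.43 with a 95% interval of -1.39 to 0.55.

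Tspo changed less. It had 237 and 124 CPM in SAF-TF, 46.4 and 57.0 CPM in SAF-WT, 28.2 and 29.6 CPM in PF-TF, and 28.1 and 34.2 CPM in PF-WT. Both SAF-TF libraries were high, and the PF groups overlapped. Tspo was 2.64 ± 0.32 higher in SAF-TF than in PF-TF (adjusted p = 2.16e-04) and 1.80 ± 0.31 higher in SAF-TF than in SAF-WT (adjusted p = 0.0108). For SAF-WT over PF-WT the value was 0.73 ± 0.31 (adjusted p = 0.0927), and this call depended on the scaling. With RLE factors, which moved the median of all genes by 0.16, the value was 0.89 (adjusted p = 0.0413). In a fit of the 4 wild type libraries alone it was 0.73 (adjusted p = 0.0780), and in that fit with the authors' scale factors, which moved the median of all genes by 0.34 relative to the fit of all 8 libraries, it was 1.08 (adjusted p = 0.0169).

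The balance of Star and Tspo differed between the groups. Per kilobase of the longest transcript, Star over Tspo was 1.12 and 1.44 in SAF-TF, 0.0981 and 0.117 in SAF-WT, 0.0365 and 0.0224 in PF-TF, and 0.0570 and 0.0201 in PF-WT. Star was the more abundant of the pair in the SAF-TF libraries and the less abundant in the other 6. Per-kilobase levels of Star use a long transcript of 4046 bases, and a shorter one would raise them.

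RNA of the side-chain cleavage enzyme differed strongly between the stages in TF. Cyp11a1 had 7827 and 2639 CPM in SAF-TF, 168.5 and 163.7 CPM in SAF-WT, 6.75 and 13.2 CPM in PF-TF, and 65.3 and 31.4 CPM in PF-WT. No pair of groups overlapped, and the lowest group was PF-TF. The SAF-TF libraries differed 2.97-fold from each other. The rise in TF follicles was 9.03 ± 0.70 (adjusted p = 2.46e-05), which placed Cyp11a1 41st of 17925 genes by size of increase. Star was 89th and Mgarp 131st, an order that leaving out 1 library changed. Without PF-TF replicate 2 Cyp11a1 rose by 9.71 and Mgarp by 10.24, and without SAF-TF replicate 1 Cyp11a1 rose by 8.04. Its rank by CPM was 9th and 21st of all genes tested in SAF-TF, and 10703rd and 8697th in PF-TF.

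In wild type, Cyp11a1 rose by 1.78 ± 0.51 (adjusted p = 0.0227). This call ended without either SAF-WT library (adjusted p = 0.0842 and 0.0658) or without PF-WT replicate 2 (adjusted p = 0.130). SAF-TF exceeded SAF-WT by 4.98 ± 0.58 (adjusted p = 0.00274), and by 3.99 without SAF-TF replicate 1. For PF-TF over PF-WT the value was -2.27 ± 0.54 (adjusted p = 0.0730), which edgeR did not call and DESeq2 did (-2.32, adjusted p = 2.13e-04).

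The genes of the electron carriers moved unevenly. Fdx1, which hands electrons to Cyp11a1, had 4150 and 3190 CPM in SAF-TF, 502 and 495 CPM in SAF-WT, 66.9 and 112 CPM in PF-TF, and 179.5 and 134.5 CPM in PF-WT. Its groups did not overlap, again with PF-TF lowest. Fdx1 rose by 5.355 ± 0.32 in TF follicles (adjusted p = 1.78e-05) and by 1.67 ± 0.27 in wild type (adjusted p = 0.00162). SAF-TF exceeded SAF-WT by 2.88 ± 0.28 (adjusted p = 0.00105), and the preantral value was -0.81 ± 0.27 (adjusted p = 0.135).

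Fdxr, the reductase that feeds Fdx1, was the least abundant of the 7 per kilobase in SAF-TF. It had 160.1 and 72.4 CPM in SAF-TF, 15.4 and 12.7 CPM in SAF-WT, 20.02 and 20.4 CPM in PF-TF, and 11.2 and 15.9 CPM in PF-WT. SAF-TF was apart from the rest, and SAF-WT overlapped PF-WT. Fdxr rose by 2.52 ± 0.38 in TF follicles (adjusted p = 7.36e-04) and was 3.05 ± 0.39 higher in SAF-TF than in SAF-WT (adjusted p = 0.00402). Between the wild type stages the value was 0.05 ± 0.38, with a 95% interval of -0.80 to 0.90, and between the preantral groups 0.58 ± 0.38 (adjusted p = 0.416). In the authors' deposited table Fdxr was the 1 gene of the 7 with an FDR above 0.05 in wild type (log2 0.40, FDR 0.361). Their test thus passed Tspo (FDR 4.63e-12) and Mgarp (FDR 4.00e-15) in wild type, which the main edgeR fit did not call. All 7 were below 0.05 in TF.

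Fdx1 outnumbered Fdxr by different margins across groups. Per kilobase the ratio of Fdx1 to Fdxr was 18.3 and 31.1 in SAF-TF, 23.1 and 27.6 in SAF-WT, 2.36 and 3.88 in PF-TF, and 11.4 and 5.99 in PF-WT. The SAF groups overlapped, and PF-TF was lowest. Cyp11a1 over Fdxr was 44.9 and 33.5 in SAF-TF, 10.1 and 11.9 in SAF-WT, 0.310 and 0.595 in PF-TF, and 5.38 and 1.82 in PF-WT. Only the PF-TF libraries had less Cyp11a1 than Fdxr per kilobase.

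Per kilobase, Hsd3b1 was the most abundant of the 7 genes in every library, and its pattern differed from that of the genes above. It had 15028 and 10473 CPM in SAF-TF, 3770 and 3075 CPM in SAF-WT, 1606 and 2847 CPM in PF-TF, and 616 and 943 CPM in PF-WT. No groups overlapped, and PF-TF stood above PF-WT. Hsd3b1 rose by 2.52 ± 0.33 in TF (adjusted p = 3.11e-04) and by 2.13 ± 0.32 in wild type (adjusted p = 0.00107), and was 1.90 ± 0.32 higher in SAF-TF than in SAF-WT (adjusted p = 0.0101). The preantral value was 1.51 ± 0.32 (adjusted p = 0.0588), just short of the threshold. It passed without the low-count filter (adjusted p = 0.0484) and in DESeq2 (adjusted p = 2.73e-04).

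The balance between the RNA of Hsd3b1 and that of Cyp11a1 differed between the groups. Per kilobase, Hsd3b1 over Cyp11a1 was 2.19 and 4.54 in SAF-TF, 25.6 and 21.5 in SAF-WT, 272 and 246 in PF-TF, and 10.8 and 34.4 in PF-WT. PF-TF was apart at the high end and SAF-TF at the low end, and the wild type groups overlapped. The mean level per kilobase of the highest gene over the lowest was 115-fold in SAF-TF, 276-fold in SAF-WT, 1187-fold in PF-TF and 307-fold in PF-WT.

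**Figure D3:**
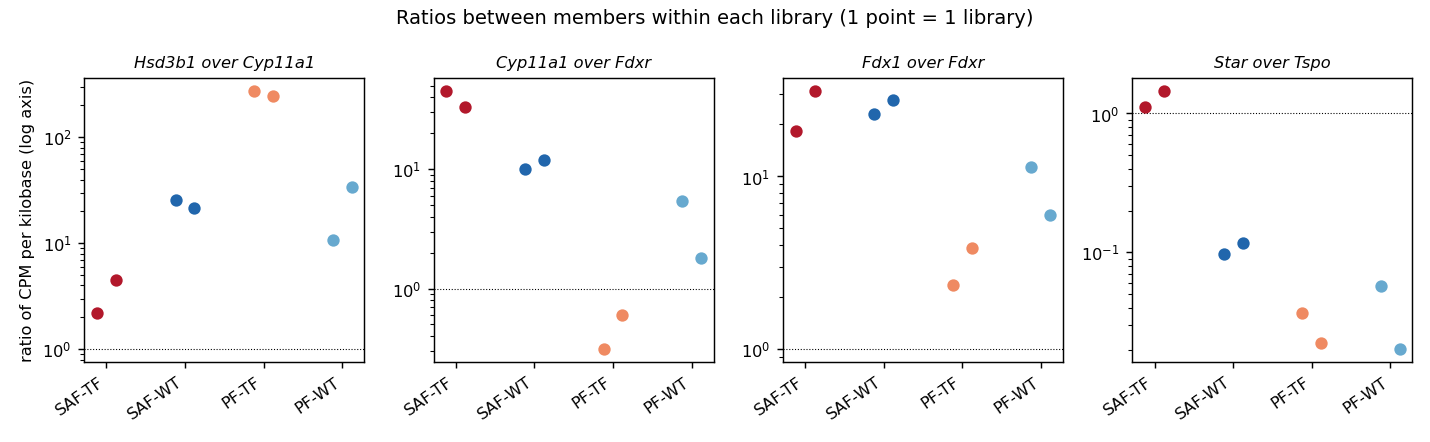
Ratios of CPM per kilobase between pairs of genes (log axis, dotted line at 1), 1 point per library, with SAF-TF and SAF-WT left of PF-TF and PF-WT. Hsd3b1 over Cyp11a1 is 2.19 and 4.54 in SAF-TF against 272 and 246 in PF-TF, and Star over Tspo passes 1 in SAF-TF only.

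Mgarp varied widely between the replicates of the PF groups. It had 2874 and 1582 CPM in SAF-TF, 227 and 206 CPM in SAF-WT, 1.99 and 22.2 CPM in PF-TF, and 96.9 and 21.8 CPM in PF-WT. The PF-TF libraries differed 11.1-fold (18 and 221 counts) and the PF-WT libraries 4.44-fold (739 and 197 counts), and these groups overlapped. Mgarp rose by 7.52 ± 1.09 in TF (adjusted p = 5.58e-04), by 6.76 without PF-TF replicate 1 and by 10.24 without PF-TF replicate 2. It was 3.36 ± 0.89 higher in SAF-TF than in SAF-WT (adjusted p = 0.0440). The wild type stage value of Mgarp was 1.87 ± 0.84 (adjusted p = 0.114), with no overlap between SAF-WT and PF-WT. It passed in a fit of those 4 libraries alone (adjusted p = 0.0326), in that fit with the authors' scale factors (2.19, adjusted p = 0.0221) and without PF-WT replicate 1 (3.44, adjusted p = 0.0321).

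Of the 7 calls for SAF-TF over SAF-WT, those of Star, Cyp11a1, Fdx1 and Fdxr held when any 1 of the 4 libraries was left out. Hsd3b1, Tspo and Mgarp missed the threshold without SAF-TF replicate 1 (adjusted p = 0.0886, 0.101 and 0.224), without SAF-WT replicate 1 (0.0747, 0.106 and 0.216) and without SAF-WT replicate 2 (0.0789, 0.0625 and 0.178). Mgarp also missed it without SAF-TF replicate 2 (adjusted p = 0.0653). In each of these fits the difference was still positive. Without SAF-TF replicate 1, Fdxr was 2.37 higher in SAF-TF than in SAF-WT and 1.84 higher than in PF-TF. Without PF-TF replicate 2, Hsd3b1 rose by 3.11 in TF, and without PF-WT replicate 1, Star rose by 3.15 and Cyp11a1 by 2.54 in wild type. All 7 genes were higher in SAF-TF replicate 1 than in replicate 2, and 6 of 7 were higher in PF-TF replicate 2 than in replicate 1.

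For all 7 genes, SAF-TF lay above PF-TF without overlap (34.8% of all genes were apart in that direction) and above SAF-WT without overlap (31.3%). SAF-WT lay above PF-WT without overlap for 6 of 7 (30.9%). Between PF-TF and PF-WT, Hsd3b1 and Fdxr were apart upward (22.9% of all genes) and Cyp11a1 and Fdx1 downward (26.1%), shares close to the background.

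Whether the stage effect differed between sources was tested with the interaction, the stage effect in TF minus that in wild type. It was larger in TF for 3 of 7 genes, where 0.658% of all genes were called in that direction. These were Star (5.73 ± 0.58, adjusted p = 0.00428), Cyp11a1 (7.24 ± 0.78, adjusted p = 0.00487) and Fdx1 (3.69 ± 0.39, adjusted p = 0.00480). Fdxr (2.47 ± 0.53, adjusted p = 0.0697), Mgarp (5.65 ± 1.25, adjusted p = 0.0729) and Tspo (1.91 ± 0.43, adjusted p = 0.0785) did not pass. For Hsd3b1 the difference was 0.38 ± 0.44, with a 95% interval of -0.59 to 1.36. Without SAF-WT replicate 2, Cyp11a1 missed the threshold (adjusted p = 0.0509).

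**Figure D4:**
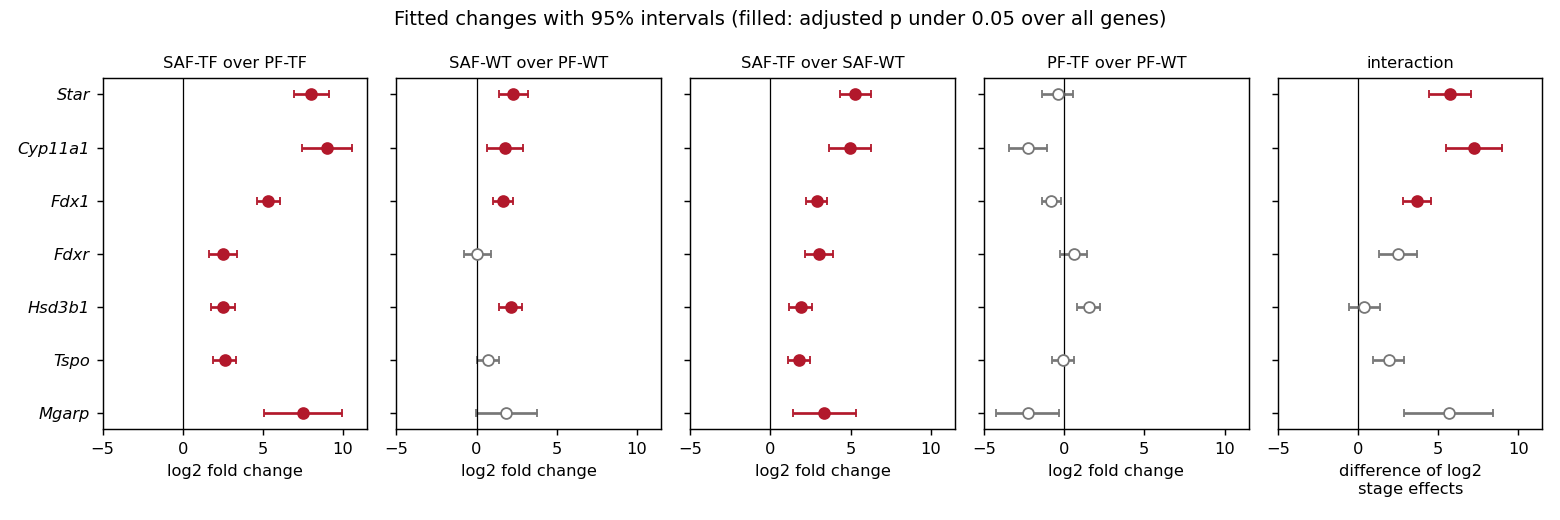
Log2 changes of the 7 genes in the 5 comparisons with 95% intervals, filled where the adjusted p over all genes was under 0.05. All 7 are filled for SAF-TF over PF-TF and SAF-TF over SAF-WT, and 4 for SAF-WT over PF-WT. None is filled for PF-TF over PF-WT and 3 are for the interaction. For PF-TF over PF-WT, 4 had an unadjusted p under 0.05, but the share of all genes at that threshold was not counted. DESeq2 called 2 in that comparison, where it called 1322 of all genes.

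Among 9 genes that supply cholesterol to the cell, 2 were higher in SAF-TF than in SAF-WT and 0 lower. Over all genes, 4.61% were higher and 5.34% lower in that comparison. With stage, 18.2% rose and 25.0% fell in TF, and 12.7% rose and 22.5% fell in wild type. These shares apply to the counts of all lists and markers below. Scarb1, the receptor that takes up cholesterol from high-density lipoprotein, had 143 and 59.6 CPM in SAF-TF and 9.85 and 16.9 CPM in SAF-WT (2.92 ± 0.50, adjusted p = 0.0108). Soat1, which esterifies cholesterol for storage, was 0.88 ± 0.23 higher (adjusted p = 0.0445). With stage in TF, 3 of the 9 rose, among them Scarb1 (1.52 ± 0.47) and the lysosomal cholesterol carrier Npc2 (1.27 ± 0.21). In wild type Npc2 rose (0.86 ± 0.21) and the lysosomal exporter Npc1 fell (-1.42 ± 0.37).

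Of 8 outer membrane proteins and binding partners of TSPO, edgeR called 0 between SAF-TF and SAF-WT. At an unadjusted p under 0.05 there were 2, but the share of all genes at that threshold was not counted. Dbi, a ligand of TSPO, had 1053 and 1020 CPM in SAF-TF and 1129 and 1024 CPM in SAF-WT. It was high in both SAF groups, and rose by 2.78 ± 0.23 with stage in TF (adjusted p = 3.30e-05) and by 1.68 ± 0.22 in wild type (adjusted p = 5.46e-04). Over the list, 3 rose and 2 fell with stage in TF, and 1 rose and 3 fell in wild type, where 18.2% of all genes rose and 25.0% fell in TF, and 12.7% rose and 22.5% fell in wild type. Acbd3, a protein that binds TSPO, fell in both sources (-1.42 ± 0.24 in TF and -1.30 ± 0.24 in wild type).

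Of 5 other electron transfer genes, 2 were higher in SAF-TF than in SAF-WT and 0 lower. These were Por, the reductase of microsomal P450 enzymes (2.33 ± 0.55, adjusted p = 0.0300), and Cyb5b, an outer membrane cytochrome b5 (1.24 ± 0.25, adjusted p = 0.0175). The second ferredoxin, Fdx1l, which serves iron-sulfur cluster assembly, had 33.7 and 34.4 CPM in SAF-TF, 31.9 and 34.8 CPM in SAF-WT, 22.2 and 25.8 CPM in PF-TF, and 28.6 and 33.1 CPM in PF-WT. Its values spanned a narrow range in all 8 libraries, unlike those of Fdx1. With stage, Cyb5b rose in TF (1.12 ± 0.25, adjusted p = 0.00525), and Nnt, which makes mitochondrial NADPH, rose in wild type (1.00 ± 0.32, adjusted p = 0.0333).

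Of other mitochondrial P450 genes, Cyp11b1, a steroid 11β-hydroxylase of the adrenal cortex, had 97 and 32 counts in SAF-TF, 0 and 0 in SAF-WT, 0 and 0 in PF-TF, and 2 and 0 in PF-WT. Against a floor of 3 counts per library, the SAF-TF mean was at least 20.4-fold higher than SAF-WT and at least 22.5-fold higher than PF-TF. Replicate 1 (10.65 CPM) gave more to this mean than replicate 2 (3.60 CPM), for which the bounds are lower. Cyp11b1 counts are low and could be shared with its close paralog Cyp11b2. Cyp27a1, a sterol 27-hydroxylase, fell with stage in TF (-1.71 ± 0.48, adjusted p = 0.0168) and in wild type (-1.71 ± 0.49, adjusted p = 0.0229).

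Other genes of the Hsd3b family had another pattern or few counts. Hsd3b7, which acts in bile acid synthesis, had 25.6 and 14.4 CPM in SAF-TF, 8.13 and 8.64 CPM in SAF-WT, 37.2 and 42.2 CPM in PF-TF, and 34.6 and 33.5 CPM in PF-WT. It was higher in SAF-TF than in SAF-WT (1.25 ± 0.33, adjusted p = 0.0433) but fell with stage in TF (-0.99 ± 0.32, adjusted p = 0.0299) and in wild type (-2.02 ± 0.33, adjusted p = 0.00165). Hsd3b6 had 3 to 101 counts per library and no call in edgeR, and Hsd3b3, with 0 to 10 counts, was not tested.

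Downstream of progesterone, 2 of 6 enzymes were higher and 1 lower in SAF-TF than in SAF-WT. Akr1c18, which inactivates progesterone, had 10512 and 11329 CPM in SAF-TF and 6.19 and 6.86 CPM in SAF-WT (10.71 ± 0.24, adjusted p = 3.24e-08). Hsd17b7, which acts in estradiol and cholesterol synthesis, was 3.69 ± 0.41 higher (adjusted p = 0.00222). Cyp17a1, which turns progesterone towards androgens in theca cells, had 4.17 and 2.82 CPM in SAF-TF and 47.1 and 41.4 CPM in SAF-WT (-3.66 ± 0.49, adjusted p = 0.00447). It rose with stage in wild type (2.37 ± 0.45, adjusted p = 0.00359) and had 0.48 ± 0.50 in TF (adjusted p = 0.463). The aromatase gene Cyp19a1 fell with stage in wild type (-3.57 ± 0.72, adjusted p = 0.00464).

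Among 12 regulators of steroidogenic genes, 2 were higher and 0 lower in SAF-TF than in SAF-WT. The factor gene Cebpb had 134.7 and 59.9 CPM in SAF-TF and 6.07 and 10.9 CPM in SAF-WT (3.52 ± 0.49, adjusted p = 0.00500). Its stage effect was larger in TF than in wild type by 3.33 ± 0.64 (adjusted p = 0.0479). Lhcgr, the receptor for luteinizing hormone, had 513 and 215 CPM in SAF-TF and 80.1 and 67.2 CPM in SAF-WT (2.31 ± 0.47, adjusted p = 0.0185). Nr5a1, the gene of the factor whose half-site letters are marked above, had 54.2 and 27.1 CPM in SAF-TF, 21.8 and 25.0 CPM in SAF-WT, 13.5 and 11.9 CPM in PF-TF, and 11.4 and 15.1 CPM in PF-WT. It rose with stage in TF by 1.68 ± 0.37 (adjusted p = 0.00529). Nr5a2, also in this list, averaged 141 CPM in SAF-TF, 129 CPM in SAF-WT, 177 CPM in PF-TF and 164 CPM in PF-WT. Binding of either factor was not tested. Of the 12, 6 rose with stage in TF, where 18.2% of all genes rose. In wild type 4 rose and 1 fell, where 12.7% of all genes rose and 22.5% fell.

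Mitochondrial genes outside steroid synthesis had calls in both directions. Of 12 general mitochondrial genes, the protease Lonp1 (1.71 ± 0.45) and the import pore Tomm40 (1.74 ± 0.43) were higher in SAF-TF than in SAF-WT, and the import receptor Tomm20 was lower (-1.07 ± 0.23). Their median was 0.20, beside 3.05 for the 7 genes and 0 over all genes. Of 5 genes of mitochondrial transport along microtubules, a process linked to Mgarp, edgeR called 0 between SAF-TF and SAF-WT. At an unadjusted p under 0.05 there was 1, but the share of all genes at that threshold was not counted. With stage, the motor Kif5b rose in TF (0.78 ± 0.25) and in wild type (0.79 ± 0.25), and the adaptor Rhot1 fell in both (-0.88 ± 0.23 and -1.38 ± 0.23).

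**Figure D5:**
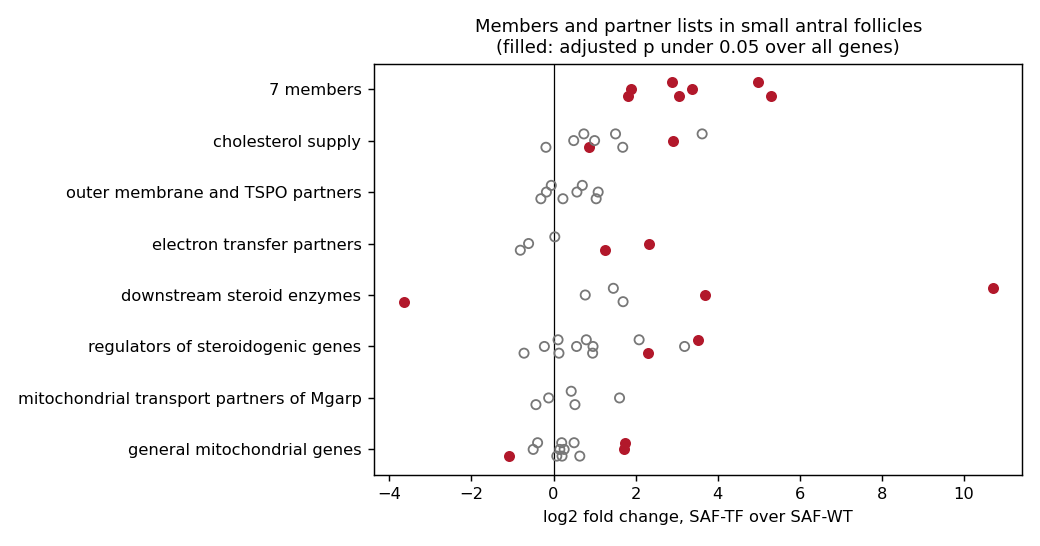
Log2 fold change of SAF-TF over SAF-WT for the 7 genes and 7 lists of partner genes, 1 point per gene, filled where the adjusted p over all genes was under 0.05. The 7 genes lie between 1.80 and 5.31, all filled, while general mitochondrial genes centre on a median of 0.20.

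Across the 8 libraries, log2 CPM of Cyp11a1 and Fdx1 were the most alike of any pair of the 7 genes (Pearson r = 0.991), and Fdxr and Mgarp the least (r = 0.651). These correlations describe 8 libraries that fall into 4 groups. Among 11443 other genes compared, the closest to Star was Map1lc3a (r = 0.997), an autophagy gene. Cyp11a1 was closest to Rims4 (r = 0.994) and then to the alcohol dehydrogenase gene Adh1 (r = 0.993). Fdx1 was closest to Efhd1 (r = 0.994), a mitochondrial calcium-binding protein gene that was also the third closest to Cyp11a1 (r = 0.991). The genes nearest to Fdxr were Tbc1d9b (r = 0.991) and Pcyox1 (r = 0.989), followed by the heme oxygenase gene Hmox1 (r = 0.980). Hsd3b1 had the weakest best match, Ankrd35 (r = 0.983). Tspo was closest to ND4 (r = 0.997), a respiratory chain gene of the mitochondrial genome, and Mgarp to Nrd1 (r = 0.994).

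Of the 8 luteal markers, 7 rose with stage in TF and 3 in wild type, and 6 were higher in SAF-TF than in SAF-WT, among them Akr1c18, Sfrp4, Ptgfr and Prlr. The 10 macrophage markers summed to 746 and 1182 CPM in SAF-TF, 263 and 335 CPM in SAF-WT, 50.4 and 24.3 CPM in PF-TF, and 506 and 98.0 CPM in PF-WT. PF-WT replicate 1 was high in them, SAF-TF replicate 2 was above replicate 1, and 1 marker was at 0 in PF-TF replicate 2. With stage in TF, 10 of 10 rose. In wild type edgeR called 0 of 10, with 1 at an unadjusted p under 0.05, where the share of all genes was not counted. Of the 10, 3 were higher in SAF-TF than in SAF-WT. The part of these cell types in the results was not tested.

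Stroma markers rose with stage in both sources, and theca markers did so in wild type. The 5 theca markers that were tested, of 6 listed, summed to 1946 and 1057 CPM in SAF-TF, 1270 and 1059 CPM in SAF-WT, 83.7 and 148 CPM in PF-TF, and 269 and 136 CPM in PF-WT. Aldh1a1 made up most of the SAF-TF sum (1897 and 1008 CPM), and the other 4 (Cyp17a1, Insl3, Hhip and Ptch1) were lower in SAF-TF than in SAF-WT. With stage, 2 of the 5 rose in TF and 5 in wild type. Stroma markers (7 genes) summed to 2089 and 1425 CPM in SAF-TF, 7347 and 5192 CPM in SAF-WT, 42.6 and 109 CPM in PF-TF, and 476 and 194 CPM in PF-WT. All 7 rose with stage in TF and in wild type, and 2 were lower in SAF-TF than in SAF-WT. The part of theca and stroma cells in the stage effects of the 7 genes was not tested.

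All groups also held granulosa and oocyte transcripts. The 8 granulosa markers summed to 1607 and 2336 CPM in SAF-TF, 510 and 721 CPM in SAF-WT, 3777 and 3616 CPM in PF-TF, and 1779 and 3264 CPM in PF-WT. Of these 8, 3 fell with stage in TF and 6 in wild type, and 0 rose in either. In SAF-TF 2 were higher and 0 lower than in SAF-WT. The 12 oocyte markers summed to 524 and 274 CPM in SAF-TF, 725 and 3411 CPM in SAF-WT, 18680 and 15785 CPM in PF-TF, and 9459 and 7808 CPM in PF-WT. With stage in TF, 12 of 12 fell, and in wild type 8 of 12. In SAF-TF 3 of the 12 were lower and 0 higher than in SAF-WT. The 5 endothelium markers summed to 61.6 and 48.5 CPM in SAF-TF, 167 and 148 CPM in SAF-WT, 15.8 and 18.1 CPM in PF-TF, and 24.3 and 20.8 CPM in PF-WT. With stage 3 of the 5 rose in TF, 3 rose and 1 fell in wild type, and Emcn was lower in SAF-TF than in SAF-WT (-2.08 ± 0.44, adjusted p = 0.0206).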

How the data were processed

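The authors deposited 1 table for TF and 1 for WT with raw counts per gene and library, per the file headers. The deposited signal columns average a group's counts after scaling each library by 1 factor. In the authors' log2 column stands the SAF signal over the PF signal, and their FDR is an adjusted p-value of a deposited test that no source used here names. HISAT2 2.0.1 and the build GRCm38 are named in the submitters' processing notes. Per the labels, polyadenylated RNA of single follicles, isolated with a needle, was copied with a SMARTer low-input kit. No source used here gives the counter, the annotation or the strand setting.

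Counts of the 21997 shared genes were fitted together, and 132 genes listed only for TF and 141 only for WT were left out. The low-count filter was filterByExpr (min.count of 10 and min.total.count of 15, over 4 groups), with TMM factors and 1 mean per group (edgeR 4.0.16, R 4.3.3, 4 residual degrees of freedom). SE is the log2 change divided by the square root of F. DESeq2 1.42.0 was an alternative, beside RLE factors, the authors' scale factors, other filters, smaller fits and left-out libraries. Likeness used log2 CPM with a prior count of 2. Positions and transcript lengths are those of GENCODE for GRCm38. Without molecular identifiers reads are not independent molecules, so intervals of shares and the floor of 3 counts hold for counting error alone.

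Members and lists were chosen with earlier results of these data known. Named genes were the 7 members, up to 4 genes per list and comparison with the smallest p, and the 3 most alike genes per member with a mean of at least 10 CPM in their highest group. Other genes are named beside a count of 5 or fewer or as single features, chosen after their values were seen. Replicates of different groups shared a number, which the labels do not tie to an animal or a day.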

Additional observations from a re-analysis of the deposited data

Results flagged for a closer look

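The stage effect differed between the sources by the test of the interaction for 3 of the 7 genes. The difference, SAF-TF over PF-TF minus SAF-WT over PF-WT on the log2 scale, was 5.73 for Star, 7.24 for Cyp11a1 and 3.69 for Fdx1, each with 2 libraries per group. Both SAF-TF libraries exceeded both libraries of every other group for these genes. Luteal and macrophage markers, whose sums are given above, rose with stage in TF as well, and their part in these differences was not tested.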

How the results depend on the processing

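For SAF-TF over PF-TF all 7 genes passed under each of 11 alternatives. For SAF-TF over SAF-WT the count of 7 genes was 4 to 6 when 1 library was left out, and with the replicate block Mgarp was lost (3.34, adjusted p = 0.0742), which left 6. Same-numbered replicates did not deviate together over all genes (correlations of -0.12 to 0.113 between groups). With 1 replicate difference per group, this cannot exclude a shared animal or day. The block changed no other call of the 7 genes. For SAF-WT over PF-WT the count of 4 genes was 5 with RLE factors, DESeq2 or the fit of 4 libraries, 6 when that fit used the authors' scale factors, and 3 to 5 when 1 library was left out. For PF-TF over PF-WT the count of 0 genes was 1 without the low-count filter, 2 with DESeq2 and 0 to 2 when 1 library was left out. For the interaction the count of 3 was 6 with DESeq2 and 2 to 5 when 1 library was left out. Values that changed sign were not past the threshold before or after. These were Fdxr for SAF-WT over PF-WT, which ran from -0.095 without SAF-WT replicate 1 (-0.046 without PF-WT replicate 1) to 0.33 with 1 library left out, and, for PF-TF over PF-WT, Star (-0.92 to 0.35, the highest without PF-WT replicate 1) and Tspo (-0.18 to 0.042, the highest without PF-WT replicate 2). The cause was not tested. Over all genes, calls for SAF-TF over SAF-WT were 1785, with 2849 in DESeq2, 3864 in a fit of those 4 libraries, 1069 with the replicate block and 116 to 982 with 1 library left out. For PF-TF over PF-WT they were 39, with 207 unfiltered, 1322 in DESeq2, 19 in the fit of 4 libraries, 6 with the block and 1 to 865 with 1 library left out. For the interaction they were 162, with 810 in DESeq2, 74 with the block and 23 to 291 with 1 library left out. Calls for SAF-WT over PF-WT were 6294, and 3119 without SAF-WT replicate 1. With 2 libraries a group, a left-out library leaves 1 library assumed to vary like the others.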
